A study of Mus musculus with 2 samples.

Results

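Interferon-stimulated genes were followed through the cell classes of the hippocampus in PS19 and PZKO mice. The set holds 50 mouse genes chosen by symbol, of which 48 were found among the 32285 genes of the count matrices, while *Mx1* and *Mx2* were not analysed here. The data are 10x Genomics 3′ single-nucleus RNA sequencing of pooled hippocampi from male mice aged 9 months, with 1 library per genotype. Both genotypes carry the human P301S tau transgene of the PS19 line on 1 allele, which is driven by the mouse prion protein promoter. The transgene is thus shared, but the study reports less phosphorylated and misfolded tau in the hippocampus of PZKO mice than of PS19 mice. PS19 mice are *Zbp1*-WT, and PZKO mice are their *Zbp1*-KO counterparts, Zbp1-/- animals that lack ZBP1, a sensor of left-handed nucleic acids. The study asked how the loss of this sensor changes hippocampal cells in tauopathy. The number of animals in a pool is not carried by the deposited counts, genotype and library cannot be told apart, and no test between genotypes was made. Ratios are therefore printed with 95% intervals that cover counting error only.

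Type I interferons signal through the receptor IFNAR and the kinases JAK1 and TYK2, which activate a complex that contains STAT2 and IRF9. That complex binds interferon-stimulated response elements in promoters and switches on a broad antiviral program, in which many of the products are themselves sensors of nucleic acids, effectors that block viral RNA or protein, or regulators that tune the pathway. In the brain, microglia, macrophages and the vascular endothelium are known for strong interferon responses, and small groups of interferon-responsive glia occur in ageing and in neurodegeneration.

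The PS19 library held 11469 nuclei with a median of 5642 UMIs (unique molecular identifiers, one per captured transcript), and the PZKO library held 10920 nuclei with a median of 8342.5 UMIs. After the filters, 9590 and 9307 nuclei were kept, of which all but 442 and 428 were assigned to 14 classes by marker genes. The libraries shared 47 barcodes. *Zbp1* (ENSMUSG00000027514, chr2:173206612-173218923, mm10) had 92 UMIs in the kept PS19 nuclei and 38 UMIs in the kept PZKO nuclei, and the sources used here do not say which part of the gene is deleted, so 3′ tags outside it cannot check the genotype. *Ttr*, the transthyretin transcript of the choroid plexus, had 2577 UMIs in PS19 microglia and 320 in PZKO microglia, and free RNA in empty droplets was not measured here. Genes for ribosomal proteins and mitochondrially encoded genes were lower in PZKO in most classes, with median log2 ratios (PZKO over PS19) of −0.45 and −0.57 in microglia, −0.53 and −0.63 in astrocytes and −0.00 and −0.02 in endothelial cells. The part of these differences in the results below was not tested unless a value is given.

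Sequence upstream of the members was read first, because the response element is the site through which interferon acts on these genes. Of the 48 genes, 38 had a promoter in RefSeq (GRCm38.p6, 250 bases before to 50 bases after the transcription start). The core of the element, read as GAAA, any 2 bases and GAAA, or on the other strand as TTTC, any 2 bases and TTTC, occurred in the promoters of 24 of these 38 genes (63.2%), against 3.99% of 27025 genes with a promoter of the same length. Within the bases before the start, the numbers were 20 of 38 (52.6%) against 3.46% of all genes. Some members that the later results turn on, among them *Ifit2*, *Oasl1*, *Oasl2* and *Irf7*, held no core in their promoters. The windows below are examples, printed only for members with a core before the start. They are in the direction of transcription, with each core in capitals and the flanking bases in lower case.
Ifit1: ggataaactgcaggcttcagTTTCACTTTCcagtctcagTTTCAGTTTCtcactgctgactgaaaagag
Ifit3: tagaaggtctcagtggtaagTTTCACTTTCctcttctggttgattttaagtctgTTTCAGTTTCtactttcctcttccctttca
Isg15: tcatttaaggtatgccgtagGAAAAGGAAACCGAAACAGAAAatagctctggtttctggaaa
Rsad2: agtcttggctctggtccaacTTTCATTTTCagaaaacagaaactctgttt
Cxcl10: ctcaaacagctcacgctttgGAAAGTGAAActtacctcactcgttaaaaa
Ifi207: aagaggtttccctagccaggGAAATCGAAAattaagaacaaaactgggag
Trim30a: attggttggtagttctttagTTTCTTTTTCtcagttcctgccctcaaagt
Bst2: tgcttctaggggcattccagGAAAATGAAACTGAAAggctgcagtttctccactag
The *Ifit1* window lies at chr19:34640765-34640833 on the plus strand and holds 2 cores between 104 and 76 bases before the start. The *Ifit3* window, at chr19:34583353-34583436 on the plus strand, also holds 2 cores, and the window of its neighbour *Ifit3b* at chr19:34607749-34607832 has the same 84 letters. The *Isg15* window (chr4:156200855-156200916, minus strand) holds 3 overlapping cores between 78 and 57 bases before the start. *Rsad2* (chr12:26456543-26456592), *Cxcl10* (chr5:92349073-92349122), *Ifi207* (chr1:173741821-173741870) and *Trim30a* (chr7:104465200-104465249) carry 1 core each on the minus strand, and *Bst2* (chr8:71537567-71537622, minus strand) carries 2 overlapping cores. A core is a match of letters and not a shown binding site. In microglia, the median log2 ratio between the libraries (PZKO over PS19) was 0.51 over 22 members with a core, 0.58 over 12 members without one and 0.48 over 10 members with no promoter in the table.

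The summed level of the 48 members differed strongly between cell classes, and the order of the leading classes was the same in both libraries. Levels are UMIs of the members per 10000 UMIs of the class. Macrophages (26 PS19 nuclei and 21 PZKO nuclei, marked by *Mrc1* and *F13a1*) had 53.1 in PS19 and 76.4 in PZKO. T cells had 49.2 and 44.4, endothelial cells 39.2 and 43.8, and microglia 29.2 and 41.1. These immune and vascular nuclei stood above all other classes. Vascular leptomeningeal cells (VLMC) followed with 16.6 and 16.7, astrocytes with 14.3 and 13.7, and pericytes and mural cells with 8.70 and 10.6. Oligodendrocyte precursors (OPC) had 7.74 and 6.12, and oligodendrocytes 4.03 and 4.24. Neurons stood at the low end, with 1.65 and 1.84 in excitatory neurons and 1.38 and 1.28 in inhibitory neurons.

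Some neighbours in this order overlapped in their counting intervals. In PS19, macrophages (48.0 to 58.7) and T cells (43.8 to 55.1) overlapped, and so did OPC (7.30 to 8.20) and ependymal cells (6.65 to 7.80). In PZKO, the interval of T cells (40.4 to 48.7) covered the levels of endothelial cells and microglia. The T cell nuclei also carried markers of other classes. Per 10000, astrocyte markers were at 14.2 in PS19 and 30.7 in PZKO, and OPC markers at 0.165 and 13.2. T cell markers were at 74.4 and 59.2, and the part of this other RNA in the T cell level was not tested. In VLMC, astrocyte markers were at 62.5 in PS19 and 64.8 in PZKO, beside VLMC markers at 58.4 and 71.0. Pericytes and mural cells had astrocyte markers at 36.2 and 41.2, and macrophages had microglia markers at 36.8 and 39.3. The part of these markers' classes in the levels of VLMC, pericytes and macrophages was not tested. Under a stricter filter on nuclei, which left 166 and 162 endothelial nuclei, endothelial cells were at 25.6 and 38.0 and ranked below microglia in both libraries. Although neurons had the lowest level per UMI, they are large and numerous, and excitatory neurons held 20.8% of all member UMIs in PS19 and 25.3% in PZKO, beside 20.8% and 21% in microglia and 25.2% and 23.1% in astrocytes.

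**Figure D1:**
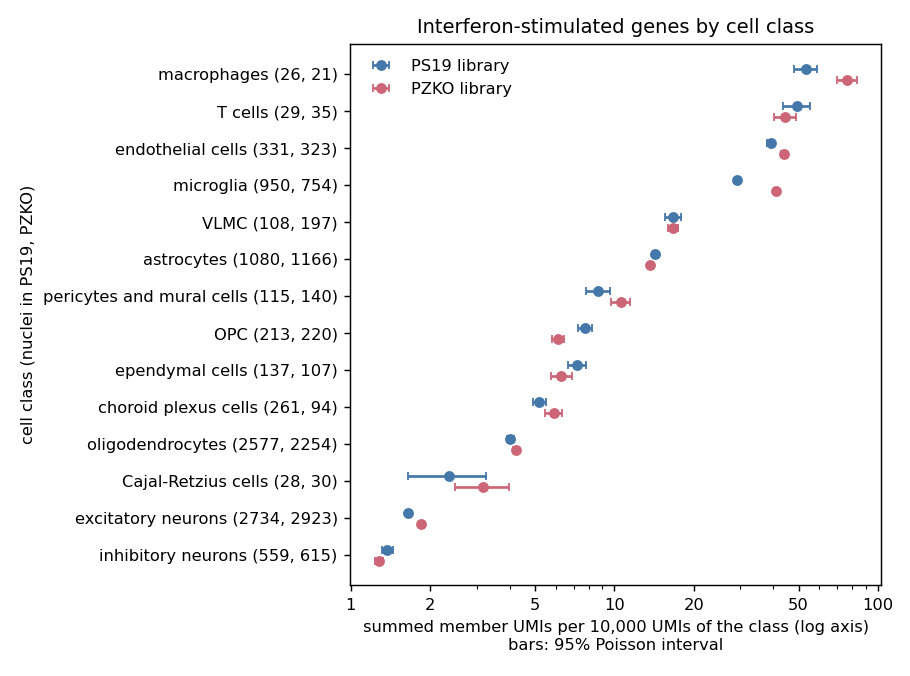
Summed member UMIs per 10000 UMIs of each cell class (log axis) in the PS19 and PZKO libraries, with bars for the exact 95% Poisson interval and the number of nuclei beside each class. Macrophages, T cells, endothelial cells and microglia lie above the other classes in both libraries, and neurons lie lowest at 1.28 to 1.84.

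Members differed in the class where they were highest. By the mean level of both libraries, 23 of the 48 members were highest in macrophages, 12 in endothelial cells, 10 in T cells, 2 in astrocytes and 1 in choroid plexus cells. None had its highest level in microglia. The 12 endothelial members included *Isg15*, the ubiquitin-like modifier (1.58 per 10000 in endothelial cells and 0.0946 in microglia), *Ifit1* and *Ifit3*, which bind viral RNA, the guanylate-binding GTPases *Gbp2*, *Gbp3* and *Gbp7*, and the antiviral membrane protein *Ifitm3*. *Ifitm3* was at 4.79 per 10000 in endothelial cells and 0.238 in microglia. The DNA-binding proteins *Ifi204* and *Ifi207* of the PYHIN family were instead at 3.49 and 6.85 in macrophages and at 1.98 and 2.20 in microglia. *Ifi27*, a mitochondrial membrane protein, was highest in choroid plexus cells (1.81), and *Cxcl10*, the chemokine that recruits T cells, and *Ifitm7* were highest in astrocytes (0.419 and 0.549). With 21 to 35 nuclei per library, the macrophage and T cell levels of single members rest on few UMIs.

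**Figure D2:**
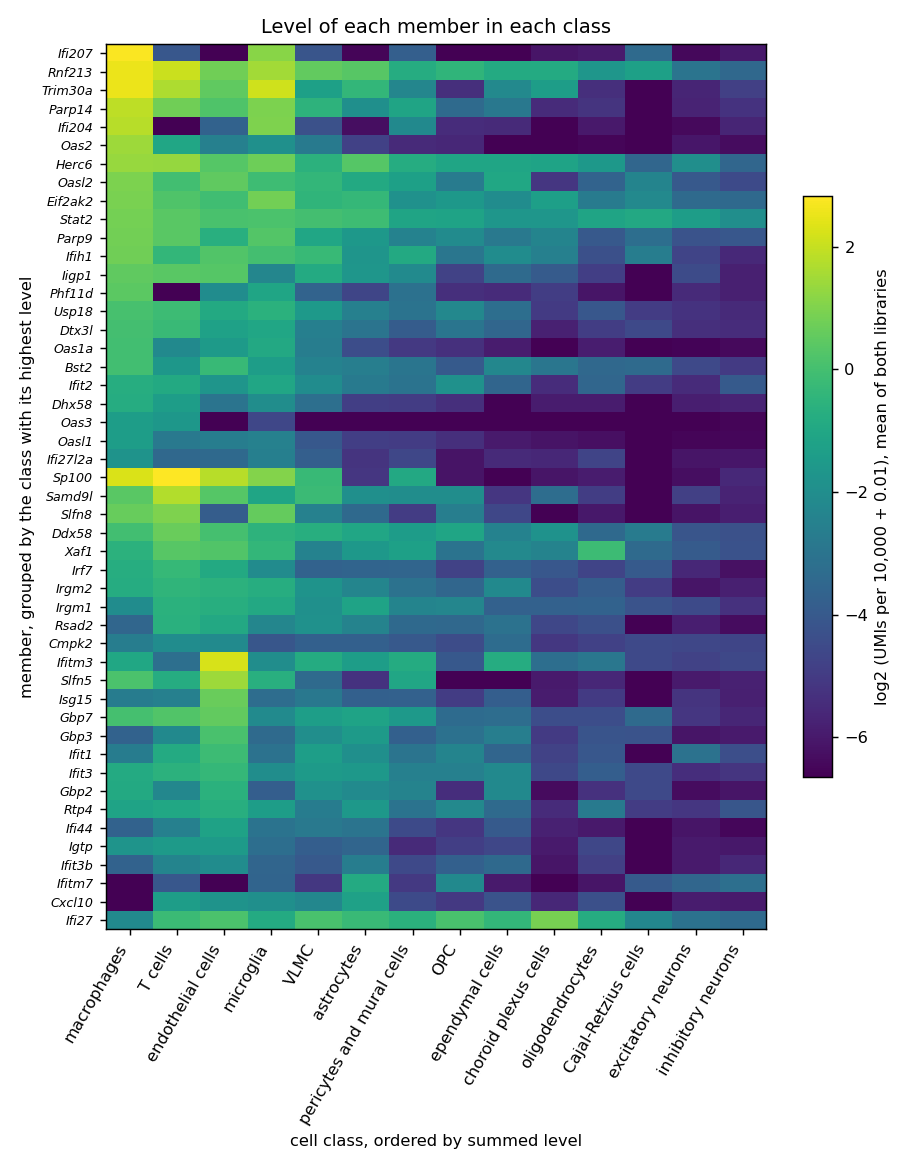
Level of each member in each cell class as log2 of UMIs per 10000 plus 0.01, averaged over both libraries, with members grouped by the class in which they are highest and classes ordered by summed level. The largest block belongs to macrophages with 23 members, the next to endothelial cells with 12.

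Among the named classes with at least 100 nuclei in each library, microglia had the largest difference in the summed level with all kept nuclei. This order did not hold under the stricter filter, where endothelial cells were at 0.57 and microglia at 0.47, or without nuclei at 100 or more member UMIs per 10000, where VLMC were at 0.34, astrocytes at −0.25, OPC at −0.24 and microglia at 0.22. Microglia (950 PS19 nuclei and 754 PZKO nuclei in 1 cluster) had 9549 member UMIs in PS19 and 13776 in PZKO, a log2 ratio of 0.49 (95% interval 0.46 to 0.53), or 1.41-fold. Of the 48 members, 44 had at least 50 UMIs over both libraries in microglia, and 40 of these were higher in PZKO and 4 lower, while 46.4% of all 10659 genes with that many UMIs were higher. The median log2 ratio was 0.50 over these members and −0.03 over all genes. At least 2-fold higher in PZKO were 10 members (22.7%), against 0.704% of all genes, and no member was at least 2-fold lower, against 0.854% of all genes. The counting interval lay above 0 for 33 members and below 0 for 2, where 10.9% and 12.7% of all genes did so. The remaining 4 members, *Ifitm7*, *Gbp2*, *Cmpk2* and *Oas3*, had fewer than 50 UMIs. Nuclei of a pool are not replicates, so these counts describe 2 libraries.

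The RNA-binding effectors and oligoadenylate synthetases had the largest differences, with a median log2 ratio of 1.02 over 9 members, all higher in PZKO. *Ifit2* had 74 UMIs in PS19 microglia and 240 in PZKO microglia (log2 ratio 1.66, 95% interval 1.28 to 2.06). *Ifit3* had 49 and 111 UMIs (1.14, 0.65 to 1.66) and *Ifit1* 22 and 50 UMIs (1.15, 0.40 to 1.94). These genes sit side by side at chr19:34550694-34650009, and their products sequester foreign RNA from the ribosome. UMIs of *Ifit3* and *Ifit3b* (19 and 31 UMIs) may be split between near-identical copies. *Oasl1* and *Oasl2*, which encode relatives of the oligoadenylate synthetases, had 18 and 94 UMIs (2.35, 1.61 to 3.17) and 211 and 398 UMIs (0.88, 0.64 to 1.13). The synthetases *Oas2* (56 and 116 UMIs, 1.02) and *Oas1a* (141 and 196 UMIs, 0.44) and the double-stranded RNA-activated kinase *Eif2ak2* (459 and 687 UMIs, 0.55) were also higher in PZKO. All 3 had intervals above 0.

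The signaling members followed with a median of 0.70. *Cxcl10* had 23 UMIs in PS19 and 145 in PZKO (log2 ratio 2.62, 95% interval 1.98 to 3.32), but these lay in only 17 and 24 nuclei. The 5 nuclei with the most *Cxcl10* held 81.4% of its UMIs in PZKO and 47.8% in PS19, and 1 PZKO nucleus alone held 41. *Irf7*, the transcription factor that amplifies interferon production, had 49 and 100 UMIs (0.99, 0.49 to 1.52). *Stat2*, a part of the factor that binds the response element, had 326 and 398 UMIs (0.25, 0.04 to 0.47), and the proapoptotic *Xaf1* had 215 and 292 UMIs (0.41, 0.15 to 0.67).

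Sensors and ubiquitin-like regulators differed less but together, all in the same direction. Over the 5 sensors the median was 0.50, from 0.19 for *Ifi207* (673 and 788 UMIs) to 0.69 for *Ifih1*, the sensor of long double-stranded RNA (246 and 408 UMIs, 95% interval 0.46 to 0.93). *Ddx58*, which encodes the RNA sensor RIG-I, had 178 and 276 UMIs (0.60), *Ifi204* had 536 and 777 UMIs (0.50) and *Dhx58*, their regulator, had 66 and 93 UMIs, with an interval that reached 0 (−0.01 to 0.94). Over the 8 members of the ubiquitin-like and ADP-ribosylation group the median was 0.51. *Isg15* had 17 and 46 UMIs (1.40, 0.57 to 2.30), its ligase *Herc6* 428 and 671 UMIs (0.61) and its protease *Usp18*, which also restrains the receptor, 173 and 263 UMIs (0.57). The giant ubiquitin ligase *Rnf213* had 745 and 1118 UMIs (0.55, 0.42 to 0.69). *Trim30a*, a ligase detected in 59.1% of PS19 and 69.6% of PZKO microglial nuclei, had 1285 and 1637 UMIs (0.31, 0.21 to 0.42). In oligodendrocytes, a class of almost the same median depth (3335 and 4248.5 UMIs, against 3311 and 4179.5 in microglia), *Trim30a* was detected in 0.621% and 0.488% of nuclei. *Parp14* (525 and 743 UMIs, 0.47), *Parp9* (333 and 463 UMIs, 0.44) and its partner *Dtx3l* (133 and 182 UMIs, 0.42), neighbours at chr16:35832874-35972605, which add or read ADP-ribose marks, completed the group.

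Single members stood out in the remaining groups. *Rsad2*, which encodes the antiviral enzyme viperin, had 14 and 115 UMIs (log2 ratio 3.0, 95% interval 2.20 to 3.92), detected in 1.47% of PS19 and 5.84% of PZKO microglial nuclei and in 0.621% and 1.64% of oligodendrocyte nuclei. *Iigp1*, an immunity-related GTPase that attacks vacuoles of intracellular parasites, had 13 and 117 UMIs (3.13, 2.30 to 4.09). Among the GTPases, *Gbp3* had 18 and 40 UMIs (1.12), whereas *Irgm2* (192 and 195 UMIs, −0.01), *Irgm1* (150 and 190 UMIs, 0.31), *Gbp7* (60 and 85 UMIs, 0.47) and *Igtp* (29 and 36 UMIs, 0.28) had intervals that spanned 0. *Igtp* and *Irgm2* overlap on the plus strand of chromosome 11, so their reads may be shared. *Sp100*, a component of nuclear bodies, had 593 and 791 UMIs (0.38), the Schlafen genes *Slfn8* and *Slfn5* had 419 and 579 UMIs (0.43) and 160 and 255 UMIs (0.64), *Samd9l*, a brake on protein synthesis, had 119 and 192 UMIs (0.66), and *Phf11d* had 134 and 176 UMIs (0.36).

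The membrane and mitochondrial proteins had a median in the other direction (−0.28), with 2 members higher in PZKO and 3 lower. *Ifitm3* had 98 UMIs in PS19 and 59 in PZKO (log2 ratio −0.77, 95% interval −1.26 to −0.29), and *Ifi27* had 195 and 159 UMIs (−0.33, −0.64 to −0.02). *Ifi27l2a* (57 and 48 UMIs) had an interval that spanned 0, as did *Bst2*, the tetherin that holds virions at the membrane (112 and 134 UMIs, 0.22). *Rtp4*, a chaperone of membrane receptors in the same group, was higher in PZKO (103 and 149 UMIs, 0.50). Ribosomal protein genes had a median of −0.45 in microglia, with 77 of 77 lower. The part of that difference in the ratios of this group was not tested.

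**Figure D3:**
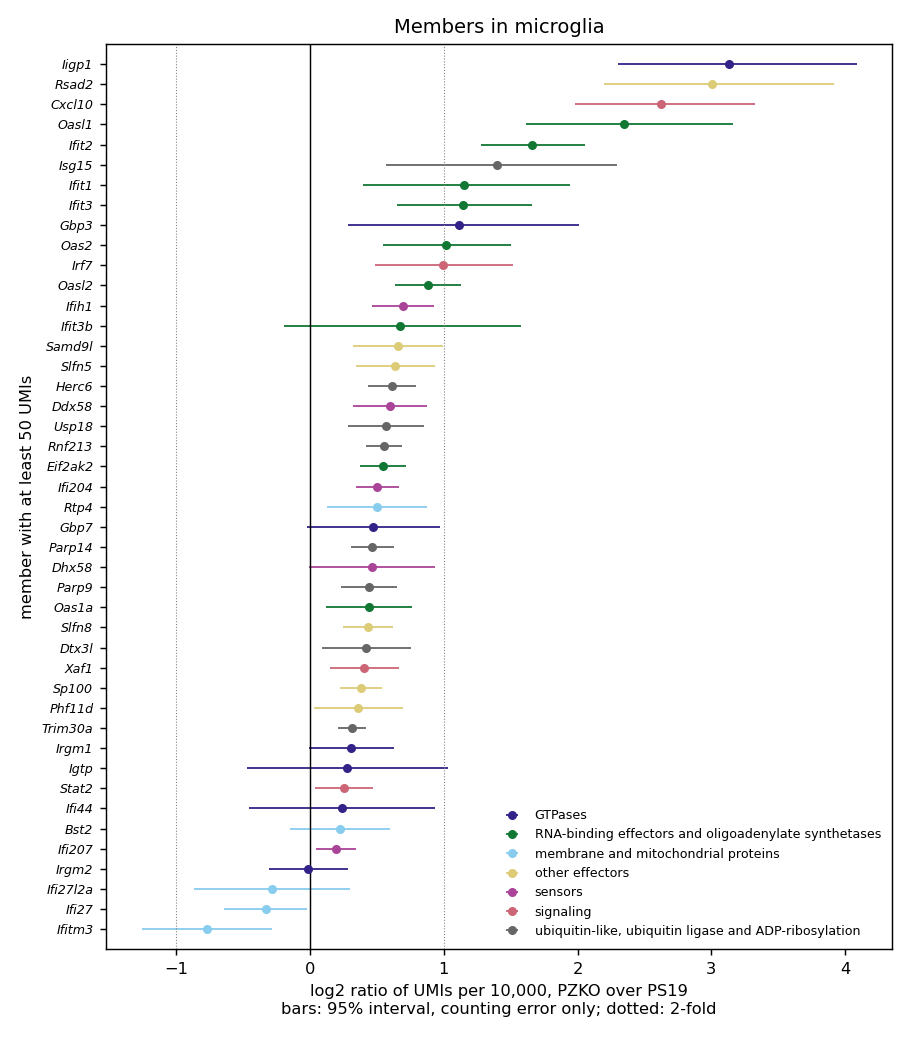
Log2 ratio of UMIs per 10000 in microglia, PZKO over PS19, for the 44 members with at least 50 UMIs, coloured by the role of the product, with bars for the 95% counting interval and dotted lines at 2-fold. *Iigp1*, *Rsad2* and *Cxcl10* lie at the top between 2.62 and 3.13, and *Ifitm3* lies lowest at −0.77.

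Most microglial nuclei held some member UMIs, and a small number held very many. Single nuclei held 0 to 104 member UMIs in PS19 (median 7) and 0 to 253 in PZKO (median 10). To compare nuclei at equal depth, each was thinned to 2000 UMIs, which left 825 PS19 and 693 PZKO microglial nuclei. At least 5 member UMIs were then found in 47.8% of PS19 nuclei (95% interval 44.3% to 51.2%) and 55.1% of PZKO nuclei (51.3% to 58.9%), and in 65.4% and 80% without thinning. In excitatory neurons thinned to the same depth, from medians of 18679 and 27682 UMIs, the shares were 0.585% and 0.993%. The upper tail differed more than the middle. Over all microglial nuclei without thinning, the median nucleus was at 20.9 member UMIs per 10000 in PS19 and 24.8 in PZKO. The 95th percentile of these nuclei was at 74.8 and 136. After thinning, the 5% of nuclei with the most member UMIs held 20.6% and 30.6% of them.

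A small number of microglial nuclei had 100 or more member UMIs per 10000. This level is a range on a continuous score and not a cell type, and 18 PS19 and 25 PZKO nuclei lay between 80 and 120. Among microglial nuclei of at least 2000 UMIs, 23 in PS19 (2.79%, 95% interval 1.78% to 4.15%) and 42 in PZKO (6.06%, 4.40% to 8.10%) reached it, and they held 15.4% and 31.5% of the member UMIs of these nuclei. Chosen by their sum, these nuclei held a median of 23 and 28 different members and no fewer than 16. The highest PZKO nucleus had 253 member UMIs of 4714, from 36 members, led by *Cxcl10* (41), *Ifit2* (18) and *Rnf213* (17). The highest PS19 nucleus had 104 of 4179, from 25 members, led by *Ifi207* (14), *Parp14* (13) and *Trim30a* (11). *Cxcl10* was the leading member in 3 of the 5 highest PZKO nuclei and in none of the 5 highest PS19 nuclei. The 9 microglia markers summed to 80.2 per 10000 in the high PS19 nuclei and 81.8 in the other PS19 nuclei, and to 62.1 and 79.0 in PZKO, and the 7 macrophage markers were at 0.985 to 2.08 in these 4 groups. The 8 endothelial markers were at 1.65 in the high PS19 nuclei and 1.21 in the others, and at 4.15 and 1.56 in PZKO. The 8 oligodendrocyte markers were at 8.17 and 10.4 in PS19 and at 11.2 and 8.71 in PZKO. The part of these other cell types in the result was not tested.

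Leaving out nuclei by their member sum lowers the level most in the library that holds more of them, so the following values are a description. Without all microglial nuclei at that level (25 in PS19 and 47 in PZKO), the summed level was 25.6 in PS19 and 29.8 in PZKO, and the log2 ratio was 0.22 (95% interval 0.18 to 0.27). The median over the 35 members that kept at least 50 UMIs was 0.22, none of these 35 was 2-fold higher in PZKO, and *Ifitm3* was 2-fold lower (−1.09). *Ifi207* (−0.07) was then lower in PZKO, while *Ifit2* (0.60) was higher. *Iigp1* (1.41), *Rsad2* (1.36) and *Oasl1* (1.36) were also above 0 but had fewer than 50 UMIs left and are not among the 35. Below 0 in these nuclei were also *Irgm1* (−0.11), *Irgm2* (−0.23), *Ifi27* (−0.27), *Ifi27l2a* (−0.42) and *Bst2* (−0.02). The level was chosen after the data had been seen.

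**Figure D4:**
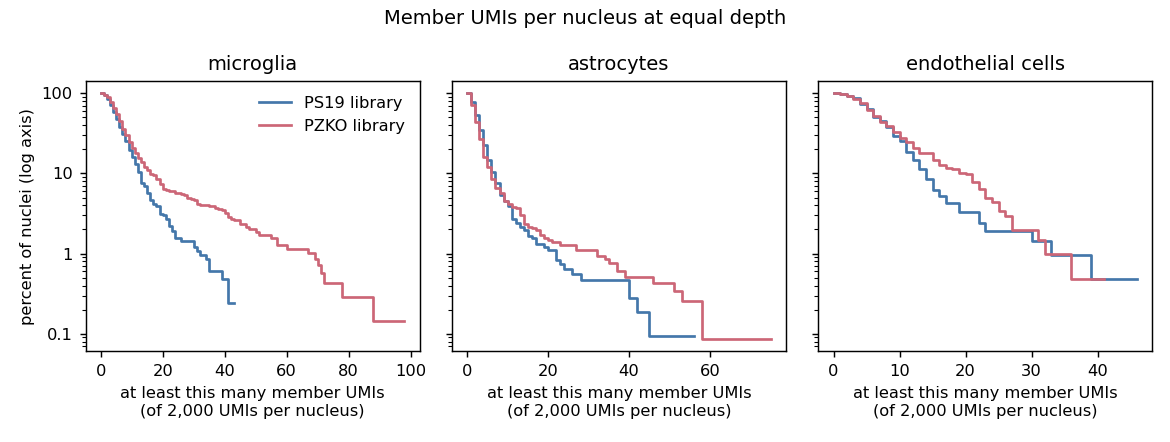
Percent of nuclei (log axis) with at least a given number of member UMIs, after each nucleus was thinned to 2000 UMIs, for microglia, astrocytes and endothelial cells in both libraries. The microglial curves run close together at low numbers and part in the upper tail, where 3.03% of PS19 and 6.49% of PZKO nuclei have at least 20 member UMIs.

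Members occurred together in the same nuclei in every class examined. The 48 members were dealt in alphabetical order into groups of 24, and nuclei with at least 3 UMIs of the first group were compared with the other nuclei for the mean UMIs of the second group, and the reverse. In microglia, the second group was 2.43-fold and the first 2.33-fold higher in such nuclei of PS19, and 2.89-fold and 3.44-fold higher in PZKO. Median depth before thinning was similar on both sides (3651 and 3438.5 UMIs in PS19, and 4664 and 4179.5 in PZKO, when the first group ranked the nuclei). The factors were 4.15 and 3.31 in PS19 astrocytes and 6.39 and 6.09 in PZKO astrocytes. In oligodendrocytes they were 5.65 and 5.25 in PS19 and 10.5 and 12 in PZKO, and in excitatory neurons 21.4 and 15.2 in PS19, on 17 and 14 ranked nuclei, and 23.5 and 11.9 in PZKO, on 31 and 33. Endothelial cells, in which most nuclei carried members, had 1.76 to 2.59. The deal put some close relatives into different groups, such as *Ifit3* and *Ifit3b*, whose UMIs may be split, and *Ifi204* and *Ifi207*. Some classes also pool clusters at unlike levels, such as 0.945 and 3.32 in excitatory clusters 2 and 7 of PS19. The part of relatives and of clusters in these factors was not tested.

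The genes outside the set whose levels went with the members were sought in microglia by the ratio of their level between 776 nuclei with at least 5 member UMIs and 202 nuclei with 0 or 1, both libraries summed. Of 10615 genes, the 10 with the highest ratio were *Ifi206*, *Aph1c*, *Ifi213*, *Zbp1*, *Ifi209*, *Ifi211*, *Gbp6*, *Ms4a4c*, *Fn1* and *Tgtp2*. Among them, *Ifi206*, *Ifi209*, *Ifi211* and *Ifi213* are PYHIN genes of the same cluster as *Ifi204* and *Ifi207*, and *Gbp6* and *Tgtp2* are interferon-inducible GTPases. *Ifi213* had 419 UMIs in the first group and 3 in the second. *Zbp1* was at rank 4, with 55 UMIs in the first group (39 in PS19 and 16 in PZKO) and 0 in the second, a count that allows at most 3. *Irf9* was at rank 423 (log2 ratio between the groups 0.80) and *Irf1* at rank 451 (0.78). The receptor chain *Ifnar1* was at rank 2423 (0.22) and *Ifnar2* at rank 5428 (−0.04).

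In astrocytes the libraries had nearly the same summed level, and the counts of members higher or lower were near those of all genes. Astrocytes (1080 PS19 nuclei and 1166 PZKO nuclei) had 11576 and 15176 member UMIs, a log2 ratio of −0.06 (95% interval −0.10 to −0.03), whose sign changed with the scaling of the counts (0.01 with DESeq2 size factors). Of 40 members with at least 50 UMIs, 17 were higher and 23 lower in PZKO, where 40.1% of all genes were higher, with a median of −0.06 beside −0.07 over all genes. The interval lay above 0 for 5 members and below 0 for 12, against 12.8% and 22.3% of all genes. *Ifitm3* was the only one at least 2-fold lower (2.50% of the members, against 1.31% of all genes), and none was 2-fold higher, against 0.303% of all genes. It had 414 UMIs in PS19 and 261 in PZKO (log2 ratio −1.12, −1.35 to −0.89), and was detected in 21.9% and 14.5% of astrocyte nuclei at medians of 6901.5 and 8961 UMIs, beside 6.55% and 5.13% of excitatory neurons. *Ifitm7*, its relative, had 522 and 501 UMIs (−0.51, −0.69 to −0.33), and *Ifi27* had 798 and 784 UMIs (−0.48, −0.62 to −0.34). In the other direction, *Rnf213* had 905 and 1581 UMIs (0.35, 0.23 to 0.47), *Parp14* 172 and 322 UMIs (0.45) and *Ifi44* 79 and 148 UMIs (0.45). *Herc6* (956 and 1418 UMIs, 0.12) and *Stat2* (730 and 1040 UMIs, 0.06), which also had many UMIs in astrocytes, had intervals that reached 0.

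Astrocytes fell into 2 clusters that held different shares of the class in each library. Cluster 5 held 507 PS19 and 677 PZKO nuclei at a summed level of 9.59 and 8.30 (log2 ratio −0.21, 95% interval −0.27 to −0.14), and cluster 6 held 573 and 489 nuclei at 17.6 and 19.3 (0.14, 0.10 to 0.18). With the clusters weighted alike, the ratio of the class was 0.02. A few astrocytes carried very many members. The nucleus with the most held 444 member UMIs of 13891, led by *Herc6* (56), *Iigp1* (44) and *Trim30a* (38), and another PZKO nucleus held 334 of 12249, with *Cxcl10* at 81. The PS19 astrocyte with the most held 292 of 11055, with *Cxcl10* at 65. At least 100 per 10000 were reached by 8 PS19 nuclei (0.743%) and 20 PZKO nuclei (1.72%), and without them the log2 ratio of the class was −0.25 (−0.29 to −0.21).

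Endothelial cells, with 331 and 323 nuclei, had 4338 and 5651 member UMIs, a log2 ratio of 0.16 (95% interval 0.10 to 0.22). Of 39 members, 30 were higher in PZKO and 9 lower, where 49.4% of all genes were higher, and the median was 0.20 beside −0.01 over all genes. No member was past 2-fold in either direction, as were 1.18% of all genes upward and 0.833% downward. *Ifitm3* had 521 and 628 UMIs (0.05, −0.12 to 0.22) and *Sp100* 373 and 452 UMIs (0.06), both with intervals across 0. *Rnf213* had 153 and 262 UMIs (0.55, 0.26 to 0.85), *Ifit1* 78 and 137 UMIs (0.59, 0.18 to 1.01) and *Isg15* 153 and 228 UMIs (0.35, 0.05 to 0.66). *Slfn5* had 278 and 365 UMIs (0.17) and *Irgm1* 75 and 68 UMIs (−0.36), with intervals across 0. The interval lay above 0 for 5 members, against 7.78% of all genes, and below 0 for 1, against 6.89%. That member was *Phf11d* (34 and 21 UMIs, −0.92, −1.78 to −0.09). The size of the class ratio depended on the filter, at 0.57 (0.47 to 0.67) under the stricter filter on nuclei and 0.07 (0.01 to 0.13) without the nuclei at 100 or more per 10000.

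In oligodendrocytes and neurons the members were sparse. Oligodendrocytes (2577 and 2254 nuclei) had 3743 and 4432 member UMIs (log2 ratio 0.07, 95% interval 0.01 to 0.14), and the sign changed under the stricter filter (−0.06). Cluster 0 held 53.2% of the class in PS19 and 32.2% in PZKO, and cluster 3 held 19.1% and 43.4%, with log2 ratios of 0.43 and −0.13. *Oasl2* was the member with the largest difference (28 and 115 UMIs, 1.87, 1.26 to 2.52) and the only one at least 2-fold higher, against 0.357% of all genes, and *Ifitm3* the only one at least 2-fold lower (156 and 84 UMIs, −1.06), against 0.901%. *Xaf1* (780 and 965 UMIs, 0.14), *Ifi27* (543 and 581 UMIs, −0.07) and *Herc6* (292 and 346 UMIs, 0.07) had intervals that reached 0, *Stat2* had 383 and 523 UMIs (0.28, 0.08 to 0.47), and *Rnf213* had 243 and 355 UMIs (0.38, 0.14 to 0.62). *Bst2* was lower (92 and 69 UMIs, −0.59, −1.06 to −0.12), and *Cxcl10* had 45 and 32 UMIs (−0.66, −1.36 to 0.02).

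Excitatory neurons (2734 and 2923 nuclei) had 9556 and 16600 member UMIs, a log2 ratio of 0.16 (95% interval 0.12 to 0.19). Of 41 members, 24 were higher and 17 lower, where 38.2% of all genes were higher, and none was past 2-fold, as were 0.736% of all genes upward and 1.14% downward. *Rnf213* (500 and 1263 UMIs, 0.70, 0.55 to 0.85), *Ddx58* (210 and 508 UMIs, 0.63, 0.40 to 0.87) and *Herc6* (1155 and 2573 UMIs, 0.52, 0.41 to 0.62) had the highest ratios by the lower end of the interval. *Stat2* (2102 and 3499 UMIs, 0.10) and *Ifit1* (564 and 1056 UMIs, 0.26, 0.12 to 0.41) were also higher. *Ifi27* had 705 UMIs in PS19 and 835 in PZKO (−0.40), *Ifitm3* had 198 and 166 UMIs (−0.89), *Ifit3* 104 and 85 UMIs (−0.93) and *Slfn5* 46 and 37 UMIs (−0.95), each with an interval below 0. Cluster 2 held 36.9% of the class in PS19 and 17.6% in PZKO, at a level of 0.945 and 1.68 (log2 ratio 0.83). The clusters of the class differed in direction. Clusters 16 (0.36), 22 (0.57) and 24 (0.46) also had intervals above 0. Clusters 8 (−0.21), 11 (−0.38) and 13 (−0.19) had intervals below 0, and those of clusters 7, 10 and 20 spanned 0. The interval lay above 0 for 12 members of the excitatory class and below 0 for 6, against 18.7% and 35.4% of all genes. In inhibitory neurons 19 members had at least 50 UMIs, of which none was 2-fold higher and 1 was 2-fold lower, against 0.725% and 1.25% of all genes. Among them, *Xaf1* had an interval above 0 (39 and 102 UMIs, 0.59) and *Ifitm3* (51 and 37 UMIs, −1.26) and *Ifit1* (59 and 52 UMIs, −0.98) intervals below 0, where 15.4% and 21.9% of all genes had such intervals.

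In OPC most members were lower in PZKO. The log2 ratio of the class was −0.34 (95% interval −0.45 to −0.23), and 16 of 17 members with at least 50 UMIs were lower in PZKO, while 43.6% of all genes were higher, and 2 members were at least 2-fold lower, against 1.23% of all genes, with none 2-fold higher, against 1.17%. The interval lay below 0 for 6 members, against 11.9% of all genes, and above 0 for none, against 8.48%. *Irgm1* had 41 and 27 UMIs (−1.28, −2.04 to −0.54), *Ifit1* 37 and 27 UMIs (−1.13, −1.90 to −0.38) and *Ifit2* 50 and 47 UMIs (−0.77, −1.37 to −0.16). *Ifi27* had 181 and 213 UMIs (−0.44), and *Eif2ak2* was the only one above 0 (42 and 84 UMIs, 0.32, −0.23 to 0.89). A single PS19 nucleus with 83 member UMIs held 7.25% of those in the thinned-depth nuclei of the class, and without it the ratio was −0.24. In VLMC the class ratio was 0.01 with 1 PS19 nucleus of 174 member UMIs and 0.34 (0.22 to 0.47) without it. *Trim30a* (10 and 79 UMIs, 1.54), *Parp9* (16 and 82 UMIs, 0.92) and *Ddx58* (0.83) had intervals above 0 there, as did *Oasl2* (29 and 121 UMIs, 0.62) and *Herc6* (25 and 107 UMIs, 0.66), and *Ifitm3* (36 and 48 UMIs, −1.02) and *Iigp1* (34 and 49 UMIs, −0.91) had intervals below 0. These were 5 and 2 of 19 members, against 10.1% and 10.7% of all genes, and 1 member was past 2-fold in each direction, against 3.19% higher and 2.58% lower. Among choroid plexus cells, *Trim30a* had 52 and 64 UMIs (1.22, 0.67 to 1.77) and *Ifi27* 439 and 210 UMIs (−0.15, −0.39 to 0.09). *Trim30a* was the only one of 10 members with an interval above 0 there, against 7.69% of all genes. At least 2-fold higher in that class were 0.227% of all genes. In ependymal cells *Ifitm3* (65 and 29 UMIs, −1.02) and *Herc6* (49 and 27 UMIs, −0.71) had intervals below 0. These were 2 of 5 members, against 7.58% of all genes, and 1.49% of all genes were 2-fold lower. In pericytes and mural cells *Herc6* had 16 and 37 UMIs (0.94, 0.06 to 1.88). It was 1 of 4 members, and 13.4% of all genes had an interval above 0 there. Macrophages and T cells had 4 members each with at least 50 UMIs, none past 2-fold and none with an interval that excluded 0. Past 2-fold were 4.72% of all genes upward and 10.3% downward in macrophages, and 8.61% and 4.5% in T cells. No member reached 50 UMIs in Cajal-Retzius cells, where 2.81% of all genes were 2-fold higher, 1.56% were 2-fold lower and 6.44% had an interval below 0.

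Some members differed in the same direction in several classes, all of which come from the same 2 libraries. Among all genes, 38.2% to 57.0% were higher in PZKO, depending on the class, and the share with one direction in many classes was not computed. *Ifitm3* was lower in 7 of the 9 classes where it had at least 50 UMIs, each time with an interval below 0, and the exceptions were endothelial cells (0.05) and pericytes and mural cells (0.13). *Ifi27* was lower in 11 of 11 classes, in 4 with an interval below 0. In microglia its ratio was −0.32 when an ambient profile was subtracted, assumed as 10% of UMIs in the proportions of all kept nuclei. That profile is not specific to choroid plexus cells, where *Ifi27* was highest. Choroid plexus markers were at 8.19 per 10000 in PS19 microglia and 1.13 in PZKO microglia. The part of choroid plexus RNA in the *Ifi27* ratios was not tested. *Rnf213* was higher in 11 of 13 classes, in 5 with an interval above 0, and *Eif2ak2* in 9 of 9, in 2 with an interval above 0. *Ifitm3* (chr7:141009586-141010770) and *Ifi27* (chr12:103434211-103440239) span under 10000 bases. Among all genes that span under 10000 bases the median log2 ratio was −0.23 in microglia, −0.32 in astrocytes, −0.27 in oligodendrocytes and −0.09 in endothelial cells, against 0.01, −0.02, 0.00 and 0.01 for longer genes. Short members had a median of −0.39 in astrocytes (12 genes) and −0.25 in oligodendrocytes (10 genes). In microglia, the 13 short members had a median of 0.46 and the 31 longer ones 0.50. The part of gene length in these values was not tested.

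**Figure D5:**
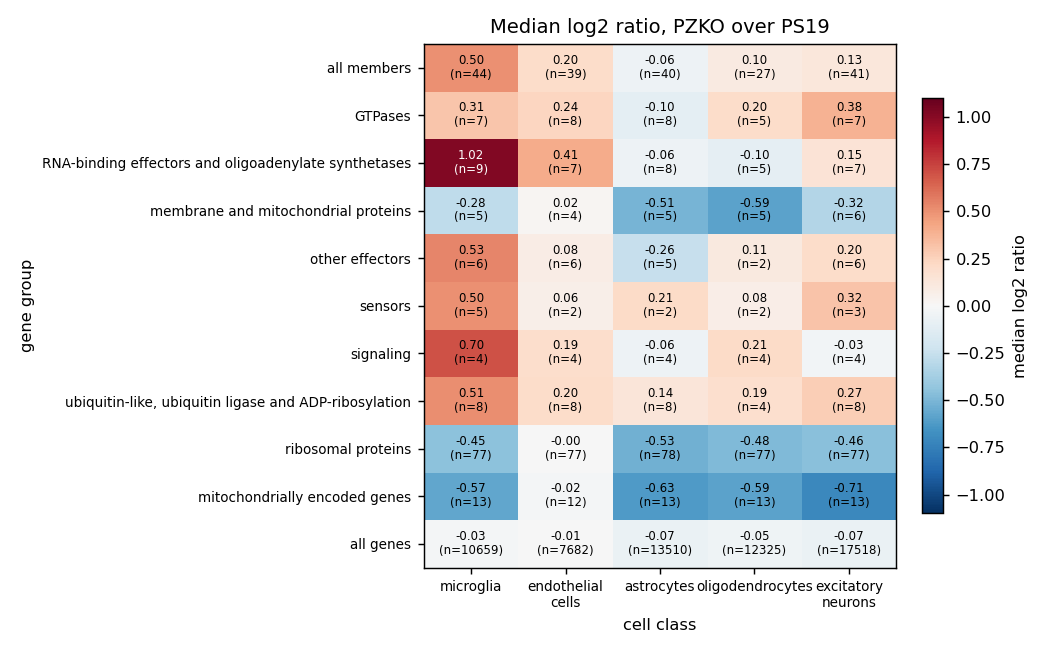
Median log2 ratio, PZKO over PS19, of the member groups and of genes for ribosomal proteins, mitochondrially encoded genes and all genes in 5 cell classes, with the number of genes that had at least 50 UMIs. The strongest group value is 1.02 for RNA-binding effectors and oligoadenylate synthetases in microglia, and ribosomal and mitochondrial medians lie between −0.45 and −0.71 in all classes except endothelial cells.

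The rest of the interferon pathway showed smaller differences in microglia than the members. Among all microglial genes with at least 50 UMIs, 46.4% were higher in PZKO, 10.9% had an interval above 0 and 12.7% below. None of the 20 interferon ligand genes had a UMI in microglia, which allows up to 3 UMIs per gene. Of 5 receptor genes with at least 50 UMIs, 1 was higher and 4 lower, with a median of −0.08. *Ifnar1* and *Ifnar2*, the chains of the type I receptor, had 343 and 332 UMIs (log2 ratio −0.08) and 827 and 849 UMIs (0.00), whereas *Ifngr1*, a chain of the type II receptor, had 588 and 494 UMIs (−0.29, 95% interval −0.46 to −0.11). Among the kinases and transcription factors, *Jak1* (788 and 1046 UMIs, 0.37), *Irf1* (112 and 161 UMIs, 0.49) and *Irf2* (1309 and 1455 UMIs, 0.12) had intervals above 0 and none an interval below. *Irf9*, a partner of *Stat2* in the factor that binds the element, was nearly level (155 and 159 UMIs, 0.00). Among 11 sensors and adaptors none had an interval above 0, and *Zbp1* (48 and 20 UMIs, −1.30, −2.13 to −0.52), *Mavs*, the adaptor of the RNA sensors (118 and 78 UMIs, −0.63), and *Irf3* (246 and 198 UMIs, −0.35) had intervals below 0. Of 40 further interferon-stimulated genes outside the set, 31 had at least 50 UMIs, 24 were higher in PZKO with a median of 0.27, 12 had an interval above 0 and 2 below. Those above included *Ifi213* (160 and 318 UMIs, 0.96), *Gbp6* (17 and 47 UMIs, 1.43), the helicase *Ddx60* (383 and 562 UMIs, 0.52) and *Parp12* (153 and 231 UMIs, 0.56), and those below were *Lgals3bp* (283 and 190 UMIs, −0.61) and *Ifi30*, a lysosomal thiol reductase (156 and 112 UMIs, −0.51).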

How the data were processed

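The authors sequenced hippocampal nuclei with the 10x Genomics 3′ assay and deposited raw UMI counts per gene and barcode (mm10). The labels name Cell Ranger 7.0.1 and the matrix headers 8.0.1. The ambient correction, filters and doublet removal of their methods are not part of the deposited counts. From these counts, nuclei with at least 600 UMIs, 300 genes and at most 5% mitochondrial UMIs were kept (10466 in PS19 and 10128 in PZKO). Doublets were scored with Scrublet in scanpy 1.11.5, and the highest scores were removed at 0.8% per 1000 nuclei (876 and 821). Nuclei were clustered jointly on 2000 variable genes without members and pathway genes (30 components, 20 neighbours, leidenalg 0.10.2, resolution 1), and clusters were named from markers by thresholds set after the clusters were seen. Counts were summed per class and library. A log2 ratio compares UMIs per 10000, with an exact conditional interval, and genes with under 50 UMIs were left out of counts and medians. edgeR 4.0.16 and DESeq2 1.42.0 under R 4.3.3 served for scaling alternatives only. Gene positions came from GENCODE (48 members matched) and promoters from RefSeq. The ratio of a single gene with its interval, and the thinning, were checked on simulated counts. Those counts were drawn independently, so the clumping of members in a few nuclei was not part of the check. Named were microglial members with at least 100 UMIs and, in other classes, the 4 with the most UMIs and the 3 highest and 3 lowest ratios by the interval end nearest 0, beside *Zbp1*. Further microglial members, and members of the small classes, were named after their values were seen. Members and lists were chosen with earlier results of these data known.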

Additional observations from a re-analysis of the deposited data

Results flagged for a closer look

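Several members differed in opposite directions in microglia and astrocytes, each with an interval that excluded 0 in both classes, and these differences between classes were not tested. The difference of the log2 ratios (microglia minus astrocytes) was 1.43 for *Ifit1* (1.15 and −0.28), 1.52 for *Ifit3* (1.14 and −0.37), 1.03 for *Dtx3l* (0.42 and −0.62), 0.70 for *Xaf1* (0.41 and −0.29) and 1.21 for *Samd9l* (0.66 and −0.55). For the summed members it was 0.56 (0.49 and −0.06), and between the astrocyte clusters 6 and 5 it was 0.35 (0.14 and −0.21), also untested. Among all genes, the interval lay above 0 for 10.9% in microglia and below 0 for 22.3% in astrocytes. The share of all genes with opposite intervals in these 2 classes was not computed. Without microglial nuclei at 100 or more member UMIs per 10000, the microglial ratio was 0.17 for *Ifit3*, 0.25 for *Dtx3l* and 0.28 for *Samd9l*.

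Nuclei outside the comparisons carried members too. Those removed as doublets had 5.2 member UMIs per 10000 in PS19 and 5.86 in PZKO, against 4.57 and 4.31 in the kept nuclei. Nuclei that failed the filter had 10.3 in PS19 and 11.6 in PZKO.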

How the results depend on the processing

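No paired analysis was possible because each genotype had 1 library. For microglia, the summed log2 ratio of 0.49 was 0.54 as a mean over nuclei, 0.54 without members with near-identical relatives and 0.22 without nuclei at 100 or more member UMIs per 10000, the last an alternative chosen after seeing the data. Without those nuclei the median over members was 0.22, 1 member was past 2-fold, and *Cxcl10* (−0.86), *Ifi207* (−0.068), *Irgm1* (−0.11) and *Bst2* (−0.02) were lower in PZKO in place of higher. *Irgm2* (−0.01) was at 0.11 as a mean over nuclei. Without thinning, the share of microglial nuclei with at least 5 member UMIs differed by 14.6 percentage points in place of 7.37. The astrocyte ratio of −0.06 was −0.0020 with edgeR TMM factors, 0.0058 with DESeq2 size factors, −0.015 under the stricter filter, −0.027 with no filter, −0.0075 with no removal of doublets, −0.10 without *Rnf213*, 0.033 without members with near-identical relatives, −0.25 without the high nuclei and 0.018 with clusters weighted alike. The oligodendrocyte ratio of 0.07 was −0.058 under the stricter filter, 0.16 without near-identical relatives and 0.16 with clusters weighted alike. The excitatory ratio of 0.16 was 0.22 with TMM, 0.23 with DESeq2 and 0.21 as a mean over nuclei. It was 0.25 without near-identical relatives and 0.24 with ambient RNA subtracted. That subtraction assumed 10% of the UMIs of a class as ambient RNA, in the proportions of all kept nuclei. This share was not measured. The endothelial ratio of 0.16 was 0.086 as a mean over nuclei, 0.57 under the stricter filter, 0.077 with no removal of doublets and 0.070 without the high nuclei. The cause of these changes was not tested. Under all alternatives, 361 values of single members in microglia lay within the counting interval of the reported value, and 17 others and those of *Cxcl10* and *Ifi207* did not. Macrophages did not form a cluster at Leiden resolution 0.5, with no filter or with no removal of doublets, nor in PZKO with separate clustering of the libraries. With 1 library per genotype, greater depth lowers the counting error but gives no measure of the variation between animals.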
